A study of Mus musculus with 24 samples.

Results

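Inpp5d, Rasal3, Ptprc, Dok2, Dok3, Syk and Lyn are 7 genes of leukocyte signalling, and their RNA was followed in choroidal tissue of wild type and Ceacam1-/- mice with and without laser injury. They were 7 of the 56065 genes of the deposited table. The set was chosen by the normalized counts of Inpp5d and Rasal3, which were higher in Ceacam1-/- than in wild type choroid without laser but not after laser, and the other 5 genes were named with them as regulators of leukocyte signalling. Differences between the genotypes are therefore given as a description with no test, and the test concerns the change with laser averaged over both genotypes, in which an opposite shift of the genotypes cancels. All 7 genes had a mean normalized count of at least 10 and were tested.

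The libraries fell into 4 groups by the labels: 4 wild type and 4 Ceacam1-/- libraries without laser, and 9 wild type and 7 Ceacam1-/- libraries with laser. The mice were wild type and homozygous knockout littermates on a C57BL/6J background, usually aged 6 to 8 weeks, and the knockout lacked exons 1 and 2 of Ceacam1 in every cell type. Choroid here stands for the complex of pigment epithelium, choroid and sclera left once the retina was taken off. Laser mice received 6 laser spots per eye to induce growth of new choroidal vessels, the time from laser to dissection is not given in the sources used here, and both sexes were used but the labels do not give the sex of a library. The labels do not say that each library came from a separate mouse, so p-values measure the spread between these libraries. Values are normalized counts, that is reads estimated per gene and divided by the authors' factors for library size and average transcript length, and they summed to between 23704346 and 35094410 per library.

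Leukocyte receptors signal through tyrosine motifs. Lyn, a Src family kinase, phosphorylates activating motifs (ITAMs), on which the kinase Syk docks, and also inhibitory motifs (ITIMs), which recruit phosphatases. Ptprc encodes CD45, the phosphatase that keeps Src family kinases ready and is carried by nearly all leukocytes. Inpp5d encodes SHIP1, a lipid phosphatase that removes the product of phosphoinositide 3-kinase from the membrane. Dok2 and Dok3 are adaptors that restrain the Ras pathway and immune receptors, and Rasal3 is a GTPase-activating protein of blood cells that switches Ras off. CEACAM1 itself carries an ITIM and can recruit the phosphatases SHP1 and SHP2, the products of Ptpn6 and Ptpn11.

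Before the members were described, the libraries were compared by genotype and by tissue content. Without laser, Ceacam1 was at 2956 ± 2153 normalized counts in wild type and at 647 ± 352 in Ceacam1-/- libraries (SD, n = 4 each). With laser the wild type libraries stood at 1869 ± 2453 (SD, n = 9) and the Ceacam1-/- libraries at 373 ± 272 (SD, n = 7). Of the Ceacam1-/- libraries, 3 of 4 without laser and 6 of 7 with laser lay below every wild type library of the same treatment. The others were library 28 at 1171 and library 15 at 905, both inside the wild type range. The deposited value is a sum over the gene, in which exons outside the deletion can still give reads, so these values check the labels only in part. Libraries 28 and 15 had the highest summed counts of surface epithelium markers among the 24 libraries (6 genes, Krt15 the most abundant), 412300 and 421900.

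Choroidal identity was present throughout, with summed endothelial markers (8 genes, led by Plvap) from 9717 to 48390 and pigment epithelium markers (6 genes, led by Ttr) from 30850 to 689100. Photoreceptor markers (8 genes), which belong to the retina, ranged far more widely inside each group, from 11330 to 543800 in wild type and from 3337 to 588300 in Ceacam1-/- libraries without laser. With laser they reached 219200 at most in wild type, whereas Ceacam1-/- libraries 14, 15 and 18 stood at 950100, 547600 and 1041000 beside 7651 to 146900 in the other 4. The same 3 libraries had the lowest summed pan-leukocyte markers of all laser libraries (12 genes, led by Laptm5), 7529, 5859 and 4975, against 16380 to 22400 in Ceacam1-/- libraries 4 to 7 and 12670 to 22960 in wild type. Their endothelial sums (9717, 18600 and 12590) were also the lowest of the laser libraries, against 26400 to 48390 in the others. The same held for pigment epithelium (52240, 39630 and 30850, against 116700 to 352200). Melanocyte markers (6 genes) were likewise lowest there (10520, 28000 and 9739, against 68950 to 190200). Skeletal muscle markers (8 genes) ran from 308300 to 526700 in wild type and from 53980 to 1042000 in Ceacam1-/- libraries without laser. With laser the muscle sums ran from 78990 to 370900 in wild type and from 15040 to 228500 in Ceacam1-/- libraries. Libraries 14, 15 and 18 are the Ceacam1-/- laser libraries numbered above 7. The wild type laser libraries numbered 11 to 19 did not share these values, and the labels name no batch. The averaged laser effect and the list counts are therefore also given for laser libraries 1 to 7 alone, which leaves them out, and for laser libraries 11 to 19 alone, which holds them.

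The promoters of the genes that chose the set and of Ptprc, the leukocyte reference used below, are shown with the motif of PU.1, a transcription factor of myeloid cells, searched as GAGGAA on both strands (TTCCTC on the other). The sequences are the 250 bases before the start of the canonical transcript in GRCm39, read 5′ to 3′ along the gene's strand, with the motif in capitals. They lie at chr1:87547784-87548033 on the plus strand for Inpp5d, at chr17:32622570-32622819 on the minus strand for Rasal3 and at chr1:138103050-138103299 on the minus strand for Ptprc.

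Inpp5d: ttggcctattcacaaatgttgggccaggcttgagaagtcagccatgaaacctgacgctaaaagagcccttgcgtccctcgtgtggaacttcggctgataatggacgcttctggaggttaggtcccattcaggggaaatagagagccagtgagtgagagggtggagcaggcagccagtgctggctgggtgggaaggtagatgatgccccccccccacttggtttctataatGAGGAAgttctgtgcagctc

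Rasal3: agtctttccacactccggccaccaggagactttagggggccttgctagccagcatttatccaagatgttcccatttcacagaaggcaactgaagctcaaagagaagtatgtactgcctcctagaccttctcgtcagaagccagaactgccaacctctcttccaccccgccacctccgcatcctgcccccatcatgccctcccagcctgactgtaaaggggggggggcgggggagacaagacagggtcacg

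Ptprc: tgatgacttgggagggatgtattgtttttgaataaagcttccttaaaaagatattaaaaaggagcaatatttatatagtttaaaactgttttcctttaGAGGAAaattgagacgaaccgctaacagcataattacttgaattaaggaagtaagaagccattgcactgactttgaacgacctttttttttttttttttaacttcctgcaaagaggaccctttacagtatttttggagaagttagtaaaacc

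The motif was in 3 of 7 member promoters, 20 bases before the start in Inpp5d, 152 before it in Ptprc and 31 before it in Syk, and in 22.9% of the 21770 promoters of the same length. A RUNX motif searched as TGTGGT on both strands (ACCACA on the other) was in 0 of 7, and in 13% of promoters. A match is a description of letters and says nothing on binding.

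Inpp5d, a gene of chromosome 1 (GRCm39, 87547989 to 87648230, plus strand), had the pattern that chose it. Without laser it was at 161, 296, 383 and 222 normalized counts in wild type libraries 21, 22, 26 and 27, and at 467, 443, 773 and 863 in Ceacam1-/- libraries 23, 24, 25 and 28. Every Ceacam1-/- library lay above every wild type library, and the means were 265 ± 96.2 and 637 ± 213 (SD, n = 4 each). With laser, wild type libraries ranged from 377 to 797 with a median of 577. The Ceacam1-/- laser libraries were at 510, 575, 601 and 492 in libraries 4 to 7 and at 213, 225 and 152 in libraries 14, 15 and 18. The first 4 lay inside the wild type range and the last 3 below it.

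Rasal3 (chromosome 17, 32609198 to 32622569, minus strand) was at 12.75, 36.04, 30.03 and 17.02 in wild type and at 78.9, 89.7, 84.0 and 100.0 in Ceacam1-/- libraries without laser, in the same order of libraries. The groups did not overlap, and the Ceacam1-/- libraries were at 88.1 ± 9.06 (SD, n = 4). With laser, wild type libraries ranged from 55.6 to 244 (median 142). The Ceacam1-/- libraries were at 145, 176, 203 and 121 in libraries 4 to 7 and at 58.6, 83.4 and 71.7 in libraries 14, 15 and 18, all inside the wild type range.

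**Figure D1:**
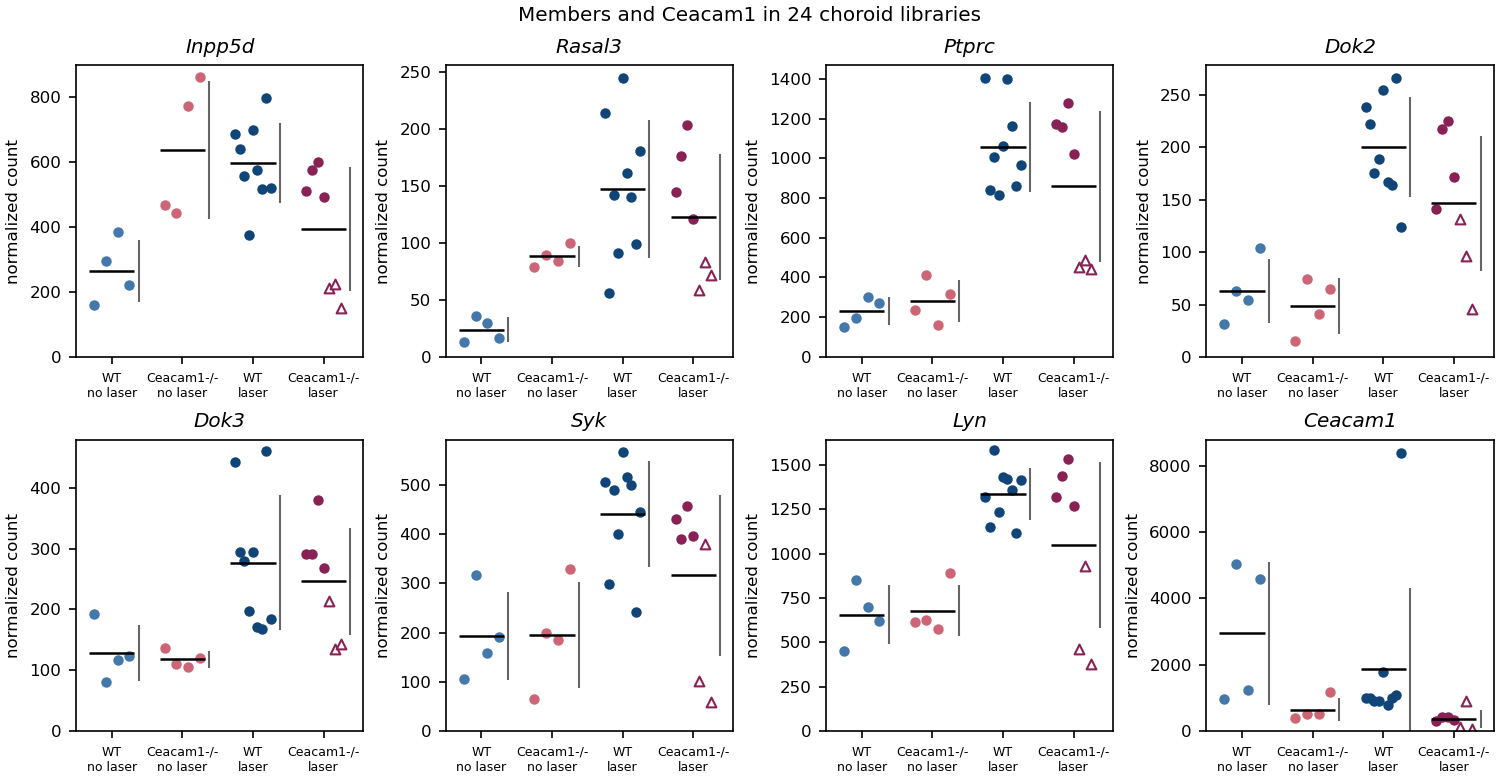
Normalized counts (vertical axis, linear) of the 7 members and of Ceacam1 in each of the 24 libraries, in 4 groups along the horizontal axis. Points are libraries, open triangles are Ceacam1-/- laser libraries 14, 15 and 18, black lines are group means and grey bars are ± 1 SD. Inpp5d and Rasal3 separate the genotypes without laser, Ptprc separates laser from no laser in both genotypes, and the open triangles lie low for Inpp5d, Ptprc and Lyn.

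On the log2 scale (normalized count plus a pseudocount of 1) the genotype difference without laser, Ceacam1-/- minus wild type, was 1.27 for Inpp5d and 1.94 for Rasal3. The other members were at 0.25 for Ptprc, -0.46 for Dok2, -0.05 for Dok3, -0.09 for Syk and 0.06 for Lyn. When 1 of the 8 libraries was left out, these ranged from 0.045 (without library 24) to 0.493 (without 25) for Ptprc, from -0.754 (without 21) to 0.004 (without 23) for Dok2, from -0.251 (without 22) to 0.162 (without 21) for Dok3, from -0.41 (without 28) to 0.36 (without 23) for Syk and from -0.105 (without 21) to 0.198 (without 22) for Lyn, so for the last 4 the sign depended on single libraries. Inpp5d stayed between 1.055 and 1.47 and Rasal3 between 1.69 and 2.17. Over all 20057 genes tested in these 8 libraries, limma called 0 genes at an adjusted p under 0.05, a share of 0%, with 307 genes at an unadjusted p under 0.05. Every Ceacam1-/- library lay above every wild type library in 0.922% of the genes. Inpp5d and Rasal3 were chosen for being among them, so nothing is read from their place there. None of the other 5 members separated the genotypes without laser.

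After laser the genotype difference was -0.74 for Inpp5d, -0.27 for Rasal3, -0.41 for Ptprc, -0.56 for Dok2, -0.16 for Dok3, -0.74 for Syk and -0.51 for Lyn, against a median of 0.01 over all 19757 genes. The share of genes called was 0.0202% (4 genes, with 4479 at an unadjusted p under 0.05). With laser libraries 1 to 7 alone, 3 wild type and 4 Ceacam1-/-, the difference was -0.20 for Inpp5d, 0.41 for Rasal3, 0.12 for Ptprc, -0.18 for Dok2, -0.12 for Dok3, -0.01 for Syk and 0.05 for Lyn. With laser libraries 11 to 19 alone, in which the 3 Ceacam1-/- libraries are 14, 15 and 18, it was -1.54 for Inpp5d, -1.02 for Rasal3, -1.15 for Ptprc, -1.16 for Dok2, -0.50 for Dok3, -1.70 for Syk and -1.28 for Lyn. For all 7 members the value was lower in the second comparison. Its Ceacam1-/- libraries had high photoreceptor sums and low leukocyte, endothelial, pigment epithelium and melanocyte sums, and the part of each in these values was not tested.

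Most members rose with laser. Averaged over the genotypes, 5 of the 7 rose with laser by limma's moderated test with Benjamini-Hochberg adjustment over 19950 genes, and 0 fell. Of all genes tested 13.9% were called and 7.69% were called higher. The median log2 fold change was 1.02 over the 7 members and -0.04 over all genes, a share and a median given as a description, since the members were chosen with results of these libraries known. Using laser libraries 1 to 7 alone, or the photoreceptor markers as a covariate, 6 of 7 rose (Syk as well), where 12.1% and 10.8% of all genes were called higher. Using laser libraries 11 to 19 alone, 3 did (Rasal3, Ptprc and Dok2), where 3.28% of all genes were called higher. With array weights Inpp5d and Syk passed too, in a fit that called 7084 genes in either direction.

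Ptprc (chromosome 1, 137990599 to 138103446, minus strand) had the highest value among the members in the laser effect averaged over genotypes. It was at 152, 198, 302 and 271 normalized counts in wild type and at 237, 411, 162 and 317 in Ceacam1-/- libraries without laser. With laser it ranged from 814 to 1406 (median 1006) in wild type and stood at 1175, 1157, 1278 and 1023 in Ceacam1-/- libraries 4 to 7 and at 450, 490 and 443 in libraries 14, 15 and 18. All laser libraries lay above all libraries without laser, the lowest of them by a narrow margin over library 24. The log2 fold change averaged over genotypes was 1.88 (SE 0.22, limma adjusted p = 3.136e-06).

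Rasal3 rose by 1.46 (SE 0.27, limma adjusted p = 8.33e-04) on the same scale. Inpp5d did not pass the test, with a log2 fold change of 0.20 (SE 0.24, limma adjusted p = 0.636), and its 95% interval reached from -0.26 to 0.67. It was at 0.57 (limma adjusted p = 0.0579) with laser libraries 1 to 7 alone and at -0.24 (limma adjusted p = 0.51) with laser libraries 11 to 19 alone, and from 0.096 (without library 21) to 0.305 (without library 26) when 1 library was left out. With array weights, however, Inpp5d rose and passed the test, with the values given in the last section. Of the 2 genes that chose the set, Rasal3 thus passed in the main fit and Inpp5d did not. The difference between the 2 was not tested. Within the genotypes, as a description, Inpp5d was at 1.21 in wild type and -0.80 in Ceacam1-/- choroid, and Rasal3 at 2.56 and 0.35. The gap between the genotypes follows from the choice of the genes.

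Dok2 and Dok3 rose. Dok2 (chromosome 14, 71003476 to 71015935, plus strand) was at 31.3, 63.0, 54.2 and 104 in wild type and 15.1, 74.2, 40.7 and 64.8 in Ceacam1-/- libraries without laser, and ranged with laser from 124 to 266 in wild type and from 45.5 to 225 in Ceacam1-/- libraries. Only library 18, the lowest of the laser libraries at 45.5, fell among the Ceacam1-/- libraries without laser. The averaged log2 fold change was 1.69 (SE 0.29, limma adjusted p = 4.131e-04). Dok3 (chromosome 13, 55671044 to 55677109, minus strand) stood at 129 ± 46.7 and 119 ± 13.9 (SD, n = 4 each) without laser and at 277 ± 111 (SD, n = 9) and 246 ± 87.6 (SD, n = 7) with laser in wild type and Ceacam1-/- choroid. Its fold change was 1.02 (SE 0.22, limma adjusted p = 3.171e-03), and with laser libraries 11 to 19 alone it was 0.67 and no longer passed (limma adjusted p = 0.0887).

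Of the kinases, Lyn passed the test and Syk did not. Lyn (chromosome 4, 3678061 to 3813122, plus strand) stood at 657 ± 166 and 678 ± 144 (SD, n = 4 each) without laser and at 1337 ± 148 (SD, n = 9) with laser in wild type, where every laser library, from 1118 to 1583, lay above every library without laser. The Ceacam1-/- laser libraries were at 1319, 1439, 1534 and 1271 in libraries 4 to 7 and at 461, 932 and 379 in libraries 14, 15 and 18. Averaged over genotypes Lyn rose by 0.77 (SE 0.21, limma adjusted p = 0.0151), and with laser libraries 11 to 19 alone the value was 0.38 (limma adjusted p = 0.204).

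Syk (chromosome 13, 52736696 to 52802828, plus strand) stood at 193 ± 89.7 and 195 ± 108 (SD, n = 4 each) without laser and at 440 ± 108 (SD, n = 9) and 316 ± 164 (SD, n = 7) with laser. The averaged value was 0.92 (SE 0.34, limma adjusted p = 0.0778) and did not pass. It passed without library 18 (1.099, limma adjusted p = 0.0112), without library 14 (1.03, limma adjusted p = 0.0354) and without Ceacam1-/- library 28 without laser (1.08, limma adjusted p = 0.0441). In libraries 14 and 18 Syk was at 103 and 58.7, below most libraries without laser, whereas library 15, with surface epithelium markers at 421900, was at 379. Those markers were also high in libraries 22 and 28 (320100 and 412300), which had the highest Syk without laser, 317 and 329, and their part in Syk was not tested.

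**Figure D2:**
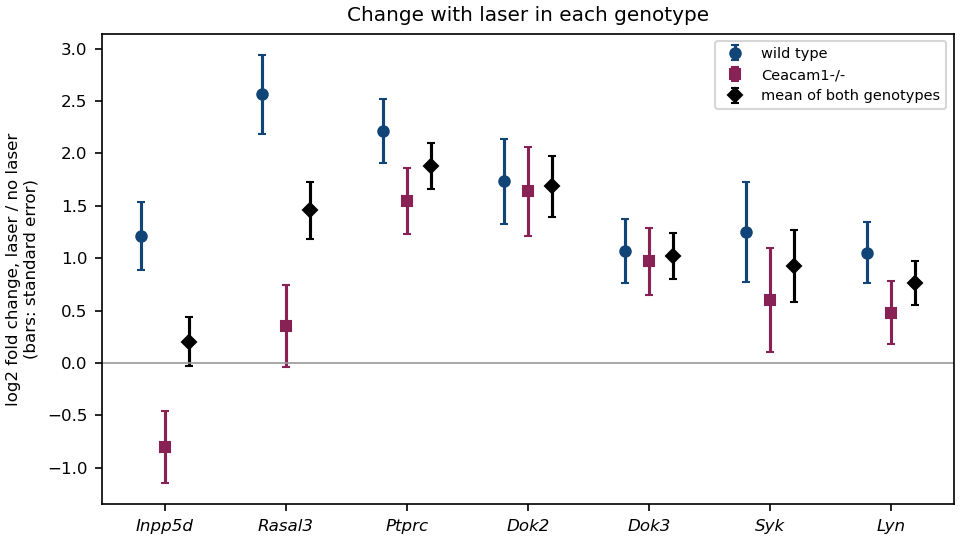
Log2 fold change with laser (vertical axis, normalized count plus 1) of the 7 members in wild type (circles), in Ceacam1-/- (squares) and averaged over both genotypes (diamonds), with bars of ± 1 standard error from the limma fit over 24 libraries. The circles and squares stand apart for Inpp5d and Rasal3, whose values chose the set, and overlap for Dok2 and Dok3.

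Within each genotype the change was also tested for the 5 members that did not choose the set. In wild type choroid 5.28% of genes were called (4.23% higher), and Ptprc (2.21, limma adjusted p = 6.791e-05), Dok2 (1.73, limma adjusted p = 0.0115), Dok3 (1.07, limma adjusted p = 0.0418) and Lyn (1.05, limma adjusted p = 0.0325) rose, while Syk was at 1.25 (limma adjusted p = 0.135). In Ceacam1-/- choroid 3.72% of genes were called (2.07% higher), and Ptprc (1.55, limma adjusted p = 0.00825) and Dok2 (1.64, limma adjusted p = 0.0317) rose. Dok3 was at 0.97 (limma adjusted p = 0.0877), Syk at 0.60 (limma adjusted p = 0.525) and Lyn at 0.48 (limma adjusted p = 0.389). With Ceacam1-/- laser libraries 4 to 7 and wild type laser libraries 1 to 3 only, the values in Ceacam1-/- choroid were 2.11 for Ptprc, 2.13 for Dok2, 1.36 for Dok3, 1.31 for Syk and 1.05 for Lyn, and each of these but Syk passed the test (limma adjusted p = 4.52e-04, 0.0111, 0.0055, 0.0759 and 0.00498 in that order), where 5.72% of all genes were called higher. With laser libraries 11 to 19 only they were 0.79 for Ptprc, 0.98 for Dok2, 0.45 for Dok3, -0.35 for Syk and -0.29 for Lyn, and none passed (limma adjusted p = 0.0801, 0.2035, 0.404, 0.709 and 0.481 in that order), where 5.88% of all genes were called higher.

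Some of these calls within a genotype depended on single libraries. The call of Dok2 in Ceacam1-/- choroid was lost without library 5, 6, 7, 23 or 25, with values of 1.17 to 1.63 and limma adjusted p up to 0.1245. Among such omissions, Ptprc in Ceacam1-/- choroid was lost without library 25 (1.31, limma adjusted p = 0.069) and Dok2 in wild type without library 21 (1.445, limma adjusted p = 0.0851). Dok3 in wild type was lost without library 1, 2, 3, 12, 17, 22, 26 or 27, with values of 0.88 to 1.07 and limma adjusted p from 0.0574 to 0.163, and Lyn in wild type without library 1, 3, 12, 21, 26 or 27, with values of 0.887 to 1.096 and limma adjusted p from 0.0502 to 0.161. Other settings also ended calls. With each genotype fitted alone, Ptprc (limma adjusted p = 0.163) and Dok2 (limma adjusted p = 0.237) were lost in Ceacam1-/- choroid. With no filter Dok2 in Ceacam1-/- and Dok3 and Lyn in wild type choroid were lost (limma adjusted p from 0.0538 to 0.0695), with quantile scaling Dok2 in Ceacam1-/- and Dok3 in wild type choroid (0.0596 and 0.0519), with the Y-linked covariate Dok3 and Lyn in wild type (0.0933 and 0.0528), and with the photoreceptor covariate or laser libraries 11 to 19 alone Dok3 in wild type (0.0551 and 0.129). The pan-leukocyte covariate, described below, ended every call of Ptprc, Dok2, Dok3 and Lyn within a genotype. Calls were also gained. Over the alternatives the limma adjusted p of Syk fell to 5.28e-04 in wild type and 0.0388 in Ceacam1-/- choroid. For Dok3 and Lyn in Ceacam1-/- choroid it fell to 0.00233 and 0.00185. The alternatives include the pan-leukocyte covariate, under which Syk was at -0.97 in both genotypes, so a low p need not be a rise. In the averaged effect no single omission ended the call for Rasal3, Ptprc, Dok2, Dok3 or Lyn.

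The wild type laser libraries lay wholly above the wild type libraries without laser for Ptprc, Dok2 and Lyn, 3 of the 5 members that did not choose the set, where 4.62% of all genes did so. In Ceacam1-/- choroid this held for Ptprc alone, 1 of the 5, where 1.15% of genes did. Rasal3 also lay wholly higher with laser in wild type and Inpp5d in neither genotype, but both were chosen by their values without laser, so nothing is read from this. The dependence of the laser effect on genotype was -2.01 for Inpp5d and -2.21 for Rasal3, which is another form of the values that chose the set. As a description it was -0.67 for Ptprc, -0.10 for Dok2, -0.10 for Dok3, -0.65 for Syk and -0.58 for Lyn. Over all genes 0% were called for it (0 genes by limma, 1241 at an unadjusted p under 0.05). With laser libraries 1 to 7 alone it was -1.47 for Inpp5d and -1.54 for Rasal3 and between -0.13 and 0.29 for the other 5 members. Using laser libraries 11 to 19 alone, it was -2.81 for Inpp5d and -2.965 for Rasal3. The other 5 members were then at -1.41 for Ptprc, -0.70 for Dok2, -0.45 for Dok3, -1.61 for Syk and -1.34 for Lyn. In that fit 1886 genes were called for the dependence.

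In bulk tissue fewer cells of a type cannot be told apart from less RNA per cell. Leukocyte markers rose with the members: all 12 pan-leukocyte markers, 9 of 10 macrophage markers (led by C1qb) and 3 of the 5 neutrophil markers tested of 8 (led by Csf3r) were called higher in the averaged laser effect, with median log2 fold changes of 1.94, 1.52 and 1.49. The counts were 12, 9 and 4 with laser libraries 1 to 7 alone and 10, 8 and 2 with laser libraries 11 to 19 alone. Of the neutrophil markers Ly6g and Ngp were listed at 0 in every wild type library without laser, Ly6g also in every Ceacam1-/- library without laser, and no other marker list had a gene at 0 throughout a group. Of the T and NK cell markers (led by Trac) 1 of 8 rose, and none of the 4 B cell markers (led by Cd79b) or the 5 mast cell markers (led by Kit) tested was called. Of the B cell markers 1 rose with laser libraries 1 to 7 alone, and with laser libraries 11 to 19 alone no T and NK cell marker did. Summed pan-leukocyte markers were at 3288 ± 1141 and 3373 ± 435 (SD, n = 4 each) in wild type and Ceacam1-/- libraries without laser. By their means Inpp5d and Rasal3 were 2.40 and 3.68 times higher in Ceacam1-/- libraries without laser. Both genes were chosen for that difference, so nothing on leukocyte content is read from it. The macrophage sum was at 8854 ± 2623 and 10040 ± 1093 in the same libraries.

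With the mean log2 level of the pan-leukocyte markers as a covariate, none of the 7 members rose with laser, where 12.7% of all genes were called higher and 12.3% lower. Ptprc was then at 0.32 (limma adjusted p = 0.346), Rasal3 at -0.08 (limma adjusted p = 0.906) and Inpp5d at -1.41, past the threshold in the other direction (limma adjusted p = 0.00369). The covariate itself rose with laser, and the summed markers of laser and other libraries did not overlap (1993 to 4772 without laser, 4975 to 22960 with it). In the same fit 5 of 8 endothelial, 4 of 6 pigment epithelium and 6 of 6 melanocyte markers fell and 8 of 8 photoreceptor markers rose, and their part in the value of Inpp5d was not tested.

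Among the other cell types, 0 of 8 endothelial, 0 of 6 pigment epithelium, 0 of 6 melanocyte (led by Dct), 0 of 8 photoreceptor, 0 of 8 lens (led by Cryaa), 0 of 6 surface epithelium and 0 of 5 erythroid markers (led by Hba-a2) were called in either direction, and 5 of 8 skeletal muscle markers (led by Acta1) fell. No skeletal muscle marker was called with laser libraries 1 to 7 alone, where 3 of 6 melanocyte and 1 of 8 endothelial markers rose. With laser libraries 11 to 19 alone 3 of 8 skeletal muscle, 4 of 6 pigment epithelium, 1 of 6 melanocyte and 1 of 8 lens markers fell.

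Set against Ptprc in the same library, Rasal3 separated the genotypes without laser and Inpp5d did not. The ratio of Inpp5d to Ptprc was 1.16 ± 0.289 in wild type and 2.64 ± 1.58 in Ceacam1-/- libraries (SD, n = 4 each) without laser, where library 25 was the highest at 4.79 and library 24 the lowest at 1.08, below wild type libraries 22 and 26 (1.49 and 1.27). With laser it lay below every library without laser in all libraries but wild type library 17 (0.924), and the means were 0.583 ± 0.169 over the wild type libraries (SD, n = 9) and 0.451 ± 0.0516 over the Ceacam1-/- libraries (SD, n = 7). In the latter it varied little, from 0.343 to 0.497, also in libraries 14, 15 and 18, whose counts of both genes were low. Rasal3 to Ptprc was 0.107 ± 0.052 and 0.347 ± 0.126 (SD, n = 4 each) without laser, and 0.138 ± 0.0479 (SD, n = 9) and 0.145 ± 0.0208 (SD, n = 7) with laser. The Ceacam1-/- libraries without laser lay above all wild type libraries without laser and above all but 1 of the laser libraries. These ratios include the values that chose the genes and carry no test.

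**Figure D3:**
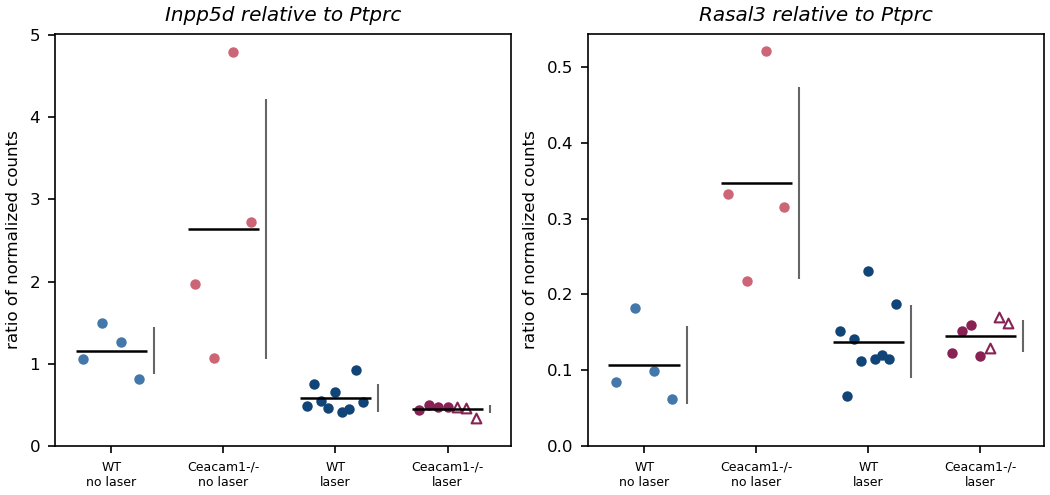
Ratio of the normalized count of Inpp5d (left) and Rasal3 (right) to that of Ptprc in the same library (vertical axes, linear), by group. Points are libraries, open triangles are Ceacam1-/- laser libraries 14, 15 and 18, lines are means and grey bars ± 1 SD. Inpp5d per Ptprc was 1.16 and 2.64 on average without laser and 0.583 and 0.451 with laser in wild type and Ceacam1-/-.

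Over the 24 libraries, Pearson's r of log2 values between Inpp5d and Ptprc was 0.47 (Spearman's rho 0.44), and that between Rasal3 and Ptprc was 0.79 (rho 0.84). Syk and Lyn were the closest pair of members (r = 0.92). The points share laser, genotype and tissue content, so these are descriptions. Ranked over 19949 other genes, Ptprc was number 19 for Rasal3 and number 3703 for Inpp5d. With the group means subtracted, r with Ptprc was 0.68 for Rasal3 (number 173) and 0.65 for Inpp5d (number 2296). The 5 protein-coding genes most like Rasal3 were Skap2, an adaptor of leukocyte adhesion (r = 0.83), Cd300c2 (0.83), Ikzf1, the lymphoid transcription factor Ikaros (0.83), Lacc1 (0.82) and Prcp (0.82). Those most like Inpp5d were Rhog, a small GTPase (r = 0.89), Acy3 (0.89), Arhgef40 (0.89), Mical1 (0.88) and C1qtnf5, which is known from the pigment epithelium (0.87). By Spearman's rho only 1 of the 5 genes stayed in each list, Lacc1 for Rasal3 and Acy3 for Inpp5d.

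With the group means subtracted, the genes most like Inpp5d were Sipa1 (r = 0.94), Fam20a (0.93), Cspg4, a pericyte marker (0.93), Tgif1 (0.92) and Pdgfb, an endothelial growth factor (0.92), and those most like Rasal3 were Slc22a21 (0.85), Lacc1 (0.80), Rest (0.80), Zyx (0.78) and Aoc3 (0.78). Against marker lists over the 24 libraries, Inpp5d had r = 0.80 with the endothelial and 0.53 with the pan-leukocyte list and -0.76 with the photoreceptor list, and Rasal3 had 0.42, 0.79 and -0.36. With group means subtracted Inpp5d was at 0.86, 0.83 and -0.77, and Rasal3 at 0.49, 0.72 and -0.53. The macrophage list was then at 0.87 for Inpp5d, the highest of the 14 lists, and at 0.70 for Rasal3. The photoreceptor content was also entered as a covariate, and with the mean log2 level of the photoreceptor markers in the fit, Inpp5d differed by 1.01 without laser and -0.29 after laser, and Rasal3 by 1.78 and 0.09.

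**Figure D4:**
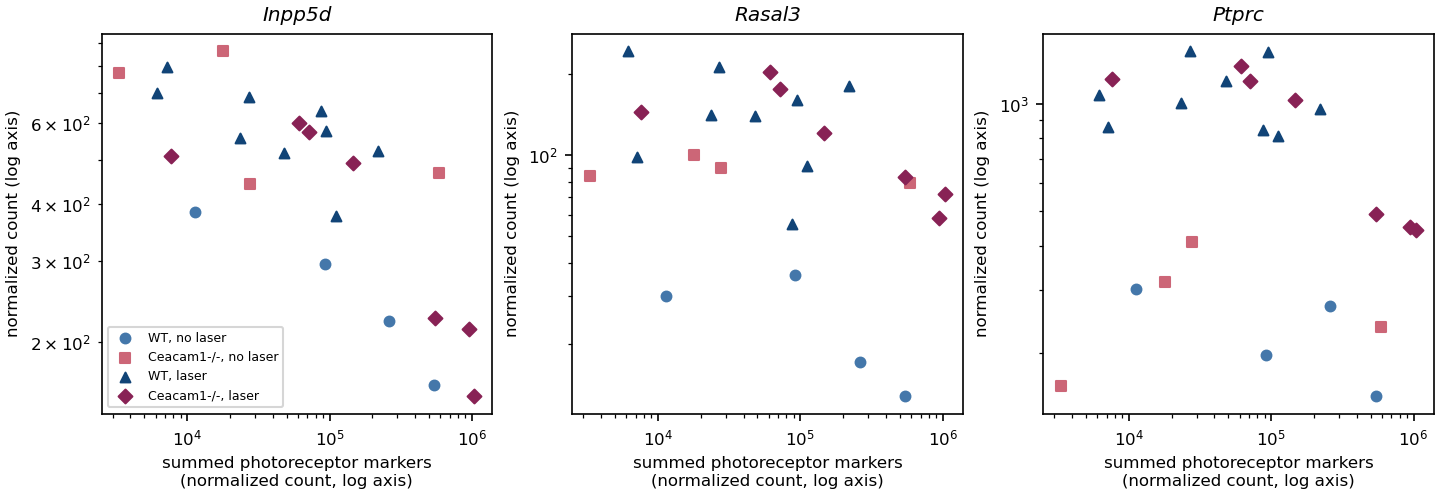
Normalized counts of Inpp5d, Rasal3 and Ptprc (vertical axes, log scale) against the summed normalized counts of 8 photoreceptor markers (horizontal axes, log scale) in 24 libraries, with a symbol per group. The 3 Ceacam1-/- laser libraries at 547600 to 1041000 lie below the other laser libraries for Inpp5d and Ptprc.

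Compared per kilobase of canonical transcript, so that levels of different genes can be set side by side, Lyn led in all groups, at 187 ± 47.2 (SD, n = 4) normalized counts per kilobase in wild type choroid without laser and 380 ± 42.2 (SD, n = 9) with laser. In wild type choroid without laser the order below it was Dok3 at 83.1 ± 30.2, Inpp5d at 53.8 ± 19.5, Ptprc at 45.1 ± 13.4, Dok2 at 34.6 ± 16.7, Syk at 32.9 ± 15.3 and Rasal3 at 5.804 ± 2.64 (SD, n = 4 each), in which neighbours from Dok3 to Syk overlapped within 1 SD. In Ceacam1-/- choroid without laser Inpp5d came next to Lyn at 129 ± 43.2 (SD, n = 4). There Rasal3 was at 21.4 ± 2.20 and overlapped Dok2 at 26.6 ± 14.5 (SD, n = 4 each). Inpp5d and Rasal3 were chosen by their values without laser, so nothing is read from their places there. With laser the order in wild type was Lyn, Ptprc (206 ± 43.8), Dok3 (179 ± 72.0), Inpp5d (121 ± 25.1), Dok2 (109 ± 26.2), Syk (74.9 ± 18.4) and Rasal3 (35.7 ± 14.6, SD, n = 9 each). Reads of Lyn and Dok2 can include those of Rps20 and Xpo7, protein-coding genes on the opposite strand that overlap them, and reads of Rasal3, low in wild type choroid without laser, those of the long non-coding A530088E08Rik on its opposite strand, because the library protocol is not described as keeping strand.

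The wider pathways were described through lists of named genes, each with the count called in the averaged laser effect beside the 13.9% of all genes. Of 18 phosphoinositide genes 5 rose and 1 fell, with a list median of 0.14. Of these genes 8 rose and 0 fell with laser libraries 1 to 7 alone, and with laser libraries 11 to 19 alone 3 rose and 1 fell. With the pan-leukocyte covariate 0 rose and 6 fell, with a median of -0.57. Pik3ap1, the adaptor that links receptors to phosphoinositide 3-kinase, rose by 1.78 (limma adjusted p = 1.57e-05) and Pik3r5, the regulatory subunit of the leukocyte kinase, by 1.72 (limma adjusted p = 2.34e-04), and Pik3cg, Pik3cd and Btk rose as well. Inppl1, the widely expressed relative of Inpp5d that encodes SHIP2, fell by 0.67 (limma adjusted p = 0.0334). Inppl1 was at 2246 ± 450 and 2368 ± 1121 (SD, n = 4 each) without laser and at 1840 ± 428 (SD, n = 9) and 1083 ± 367 (SD, n = 7) with laser in wild type and Ceacam1-/- choroid, and its call was lost without library 22, 24, 25, 27 or 28 (-0.63 to -0.54, limma adjusted p from 0.062 to 0.101) and with laser libraries 1 to 7 alone (-0.58, limma adjusted p = 0.106).

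Rasal3 has relatives that also switch Ras off. Of 9 other Ras GTPase-activating proteins none was called in the averaged laser effect (1 fell with the pan-leukocyte covariate), the list median was 0.06, and the lowest p belonged to Rasa3 at 0.38 (limma adjusted p = 0.0764), which passed without library 14, 15 or 23 (0.41 to 0.51, limma adjusted p from 0.00496 to 0.0489) and with array weights (0.59, limma adjusted p = 7.72e-05). None of 6 Ras exchange factors, which act in the opposite sense by loading Ras, was called either (1, Sos2, fell with laser libraries 1 to 7 alone, and 1 rose and 2 fell with the pan-leukocyte covariate), with Rasgrp4 at 0.79 (limma adjusted p = 0.0759), which passed without library 15 or 28 (0.88 to 0.95, limma adjusted p from 0.0344 to 0.0389), with the photoreceptor covariate (0.86, limma adjusted p = 0.017) and with array weights (0.71, limma adjusted p = 0.013). Within the adaptors, 9 of 17 rose and 2 fell, against 10 and 2 with laser libraries 1 to 7 alone and 5 and 2 with laser libraries 11 to 19 alone. With the pan-leukocyte covariate 0 rose and 2 fell. Lat2 (2.19, limma adjusted p = 9.071e-06) and Vav1 (2.05, limma adjusted p = 5.838e-06), which act below immune receptors, rose with the smallest p of the list. Dok1, another Dok protein of blood cells, rose by 1.35 (limma adjusted p = 0.00219). Dok7, the Dok protein of the neuromuscular junction, fell by 1.39 (limma adjusted p = 2.452e-04) and Dok5 by 0.90 (limma adjusted p = 0.01), while 5 of 8 skeletal muscle markers fell in the same comparison, and the part of muscle content in Dok7 was not tested.

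Of the 8 Src and Syk family kinases tested beside Lyn and Syk (Blk of 9 was too low), 2 rose and 0 fell, as many as with laser libraries 1 to 7 or 11 to 19 alone or with the pan-leukocyte covariate, where the genes were Fgr and Zap70. Fgr, a kinase of myeloid cells, rose by 3.81 (limma adjusted p = 3.896e-08), and the widely expressed Src was at -0.09, Fyn at 0.19 and Yes1 at 0.32. Of 11 tyrosine phosphatases 5 rose, and 5 and 3 did with laser libraries 1 to 7 and 11 to 19 alone and 1, Ptpn2, with the pan-leukocyte covariate. Ptpn6, which encodes SHP1, stood at 358 ± 117 and 349 ± 151 (SD, n = 4 each) without laser and at 961 ± 266 (SD, n = 9) and 762 ± 314 (SD, n = 7) with laser, and rose by 1.29 (limma adjusted p = 3.436e-04). Ptpn11, which encodes the ubiquitous SHP2, was at -0.06 (limma adjusted p = 0.719), with means between 1662 and 1984 in the 4 groups. Ptpn2 rose by 0.63 (limma adjusted p = 1.115e-04).

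Of 18 ITAM adaptors and ITIM receptors 15 rose, with a median of 1.56. Fcer1g, the ITAM chain of Fc receptors, rose by 2.10 (limma adjusted p = 3.198e-06), and the myeloid receptor Cd300lf by 2.71 (limma adjusted p = 4.125e-08). The 3 that were not called were Cd22 of B cells (0.87, limma adjusted p = 0.114), the endothelial Pecam1 (0.11, limma adjusted p = 0.776) and Ceacam1 itself (-0.93, limma adjusted p = 0.177). With laser libraries 1 to 7 alone 16 of 18 rose, and with libraries 11 to 19 alone 11 did. With the pan-leukocyte covariate 1 rose (Cd300lf) and 2 fell, with a median of -0.41. In the main fits no gene of any of these lists was called for the genotype difference without laser or after laser. None was called for the dependence of the laser effect on genotype either. Of all genes 0%, 0.0202% and 0% were called in that order. With so few calls, a count of 0 does not show whether the lists differ from all genes. After laser, libraries 14, 15 and 18 included, the median genotype difference was -0.46 for the ITAM and ITIM list and for the adaptors. It was -0.32 for phosphoinositide genes, -0.23 for phosphatases and -0.03 for kinases. Ras GTPase-activating proteins were at 0.04, exchange factors at -0.02 and all genes at 0.01, and these medians were not tested. With laser libraries 11 to 19 alone 7552 genes were called after laser and 1886 for the dependence, and the part of the lists in them is not given here.

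**Figure D5:**
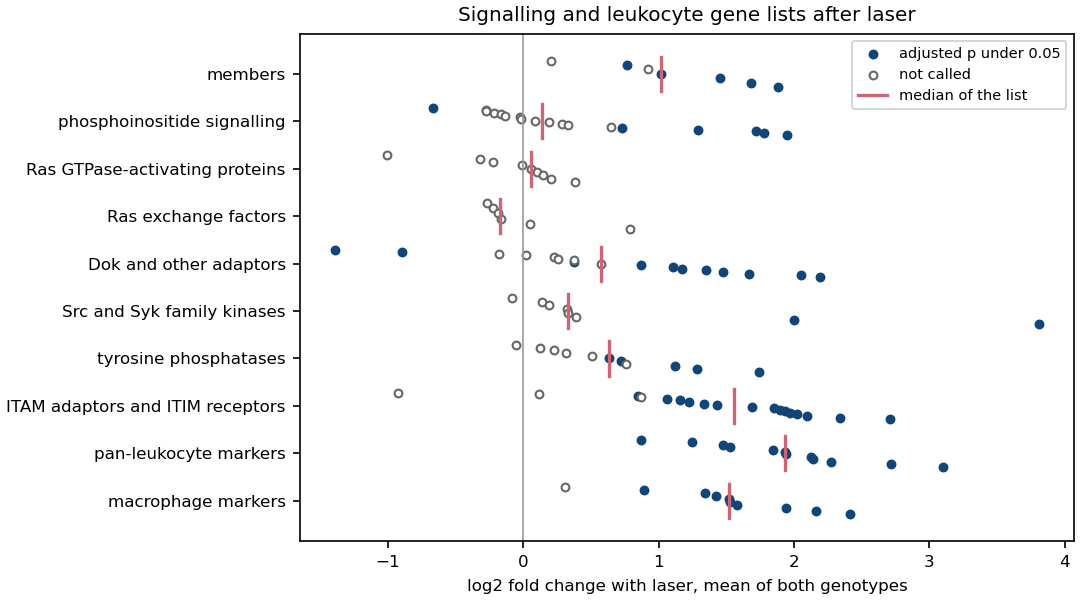
Log2 fold change with laser averaged over genotypes (horizontal axis) for the members, the 7 signalling lists, the pan-leukocyte and the macrophage markers (rows). Filled points have a limma adjusted p under 0.05, open points were not called, and vertical bars are list medians. The ITAM and ITIM list (median 1.56) lies close to the leukocyte markers (1.94 and 1.52), and the Ras GTPase-activating proteins (0.06) and exchange factors (-0.17) lie around 0.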

How the data were processed

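Choroidal RNA of 24 mouse libraries was analysed from a table of normalized counts, made from SMART-Seq libraries. According to the submitters' processing notes, reads were checked with FastQC 0.11.5, and quantified with Salmon 1.10.3 on GRCm39 and normalized with DESeq2 1.44.0. The table holds signal per gene as deposited: the authors divided the estimated reads by factors for library size and average transcript length. They are not whole reads, so the depth in reads is not known from the table and no count model was fitted. Positions came from the reference annotation, which held 99.1% of the gene identifiers, and 40409 genes were above 0 in at least 1 library. No library was removed from the main analysis. Sex is not in the labels and was no covariate.

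Groups came from the labels for genotype and laser. Values were raised by a pseudocount of 1 and taken to log2, genes averaging under 10 across the fitted libraries were dropped, and linear models were fitted with limma (version 3.58.1, R 4.3.3), letting prior variance depend on expression. P-values were adjusted over all tested genes (Benjamini-Hochberg, threshold 0.05). Laser effects and their dependence on genotype came from 1 fit of 24 libraries, genotype differences from the 8 libraries without laser and the 16 with it. The laser and genotype comparisons share libraries. The method was tested on simulated data. Tables and figures were made in Python 3.11.15 with pandas 2.3.3, numpy 2.4.6 and matplotlib 3.10.9.

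The members and lists were chosen with earlier results of these data known. Named genes were the 7 members, Ceacam1, Ptpn6 and Ptpn11, from each pathway list the 2 called genes with the smallest p among those rising and among those falling in the averaged laser effect (or, with no call, the 1 with the smallest p), from each marker list the most abundant gene and those at 0, and the 5 genes most like Inpp5d and Rasal3. Some genes that this rule names are not reported here. Pik3cg, Pik3cd, Btk, Dok1, Src, Fyn, Yes1, Cd22, Pecam1, Sos2 and Zap70 were named after their values were seen. The alternatives tried were quantile and upper-quartile scaling, a pseudocount of 0.5 or 10, a minimum mean of 50 or none, limma without trend or with robust variances, array weights, Y-linked and pan-leukocyte covariates, each genotype alone, Spearman's rho for likeness, and leaving out each library. The photoreceptor covariate, laser libraries 1 to 7 or 11 to 19 alone and leaving out laser libraries were chosen after seeing the data. Promoters were read from the reference genome at the start of the canonical transcript.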

Additional observations from a re-analysis of the deposited data

Results flagged for a closer look

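The highest or lowest library was compared with the others by Dixon's criterion, which chance alone meets in about 1 of 20 groups. This was done in 32 groups of libraries, 4 groups for each of the 7 members and Ceacam1, and 3 values stood apart. Lyn was at 892 normalized counts in Ceacam1-/- library 28 without laser, above 578 to 629 in the other 3 libraries of its group. Ceacam1 was at 1171 in the same library, above 405 to 508 in the other 3. Ceacam1 was at 8367 in wild type laser library 19, above 774 to 1776 in the other 8. Summed surface epithelium markers were at 412300 in library 28, against 2150 to 11890 in the other 3 of its group, and at 113800 in library 19, against 1312 to 13900 in the other 8, and their part in these values was not tested.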

How the results depend on the processing

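The labels number libraries across the groups and no number occurs in 2 groups. No paired analysis was possible because the labels do not name the mouse behind a library. The number of genes called for the laser effect averaged over genotypes, 2764, became 7084 with array weights, 4993 with the leukocyte covariate and 1675 with laser libraries 11 to 19 alone. For the laser effect in wild type 1053 became 2274 with that genotype fitted alone, 6505 with array weights and 687 with the leukocyte covariate, and 479 to 1257 when 1 library was left out. For the laser effect in knockout (Ceacam1-/-) choroid 742 became 38 with that genotype alone, 437 with no filter, 3551 with array weights, 6032 with the leukocyte covariate, 1464 with laser libraries 1 to 7 and 2907 with laser libraries 11 to 19, and 148 to 2488 when 1 library was left out. For the genotype difference without laser, 0 became 1 with upper-quartile scaling, without trend or with array weights, and 0 to 1 when 1 library was left out. For the genotype difference after laser 4 became 2 at a minimum mean of 50, 297 with array weights, 0 with laser libraries 1 to 7 and 7552 with laser libraries 11 to 19, and 4 to 61 when 1 library was left out. For the dependence of the laser effect on genotype 0 became 1886 with laser libraries 11 to 19. The cause was not tested.

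With the leukocyte covariate the averaged laser effect on the log2 scale was -1.41 for Inpp5d, -0.082 for Rasal3, 0.32 for Ptprc, 0.07 for Dok2, 0.19 for Dok3, -0.97 for Syk, -0.59 for Lyn, -0.026 for Rasa3, -0.39 for Rasgrp4 and -0.21 for Ptpn6. Under that covariate the wild type values were -0.68 for Inpp5d, -0.16 for Dok2, -0.97 for Syk and -0.54 for Lyn, and the Ceacam1-/- values -0.97 for Syk and -0.65 for Lyn. With array weights Inpp5d was at 0.54 and passed (limma adjusted p = 0.0157), Syk passed at 1.105 and Ptpn11 was at 0.028. Syk also passed at 1.007 with the photoreceptor covariate and 1.27 with laser libraries 1 to 7, and ranged from 0.70 to 1.099 when 1 library was left out. With laser libraries 11 to 19 the averaged effect was -0.24 for Inpp5d, 0.67 for Dok3 and 0.38 for Lyn, and the Ceacam1-/- effect -0.35 for Syk and -0.29 for Lyn. With laser libraries 1 to 7 Ptpn11 was at 0.057, and the genotype difference of Lyn after laser at 0.051. The cause of these changes was not tested. The depth in reads is unknown, so no limit on low values is given. Groups of 4 libraries without laser entered every comparison but that after laser.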
